A study of Rattus norvegicus with 6 samples.

Results

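Prostanoid receptors are the cell surface receptors for prostaglandins, prostacyclin and thromboxane, and 7 of their genes were followed here: Ptgir, Ptger1, Ptger2, Ptger3, Ptger4, Ptgfr and Tbxa2r. Every probe set annotated to 1 of these genes alone was taken, which gave 13 of the 8799 probe sets on the array. A probe set is the group of short oligonucleotides that reads 1 transcript on an Affymetrix array. A probe set for the prostaglandin D receptor is annotated to several genes and was not analysed here. The RNA came from the dorsolateral prostates of male rats of the inbred ACI strain, labelled as 18 months old, whose feed had been high or low in corn oil for 18 months. Each diet had 3 rats, 1 array per rat, and the labels name no further treatment. The labels of high corn oil replicate 3 conflict: its title and source name give the high diet, and its description gives the low one. It was kept in the high group.

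Prostanoids are made from arachidonic acid, which the body derives from linoleic acid, the main fatty acid of corn oil. Cyclooxygenases start the synthesis, and each receptor then couples its ligand to a G protein. The prostacyclin receptor (Ptgir) and the prostaglandin E receptors EP2 (Ptger2) and EP4 (Ptger4) raise cyclic AMP and in smooth muscle act as relaxant receptors. EP3 (Ptger3) mainly lowers cyclic AMP and is made in isoforms that differ at the C-terminus. EP1 (Ptger1), the prostaglandin F receptor (Ptgfr) and the thromboxane receptor (Tbxa2r) raise intracellular calcium and contract smooth muscle.

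The dorsolateral prostate label was checked against its secretory genes. Pbsn, which encodes probasin, lay between 19851 and 99574 intensity units on the 6 arrays, and Msmb, which encodes the beta-microseminoprotein, between 33652 and 80234. Array medians ran from 573 to 710, and every array had been scaled to the same trimmed mean of 2500 units. One array, high corn oil replicate 1, resembled the low corn oil arrays (Spearman correlations of 0.928 to 0.950 across tested probe sets) more than its own group (0.869 and 0.881). Signal from the bacterial spike-in controls divided the arrays across diets: it was strong in high replicate 1 and in low replicates 1 and 2, and weak in the other 3.

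Much of the receptor family gave values at or below 0. Of the 78 receptor values (13 probe sets on 6 arrays), 36 were at or below 0, which is 46.2%, against 20.4% over all probe sets other than controls. They were divided evenly, 18 of 39 under each diet. Only 5 receptor probe sets were above 0 on all 6 arrays, 4 were at or below 0 on all 6, and 4 were mixed. Detection calls were not used here, so a value near or below 0 gives no level, and these transcripts could not be called absent. In bulk tissue, fewer cells of a type and less RNA per cell cannot be told apart.

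**Figure D1:**
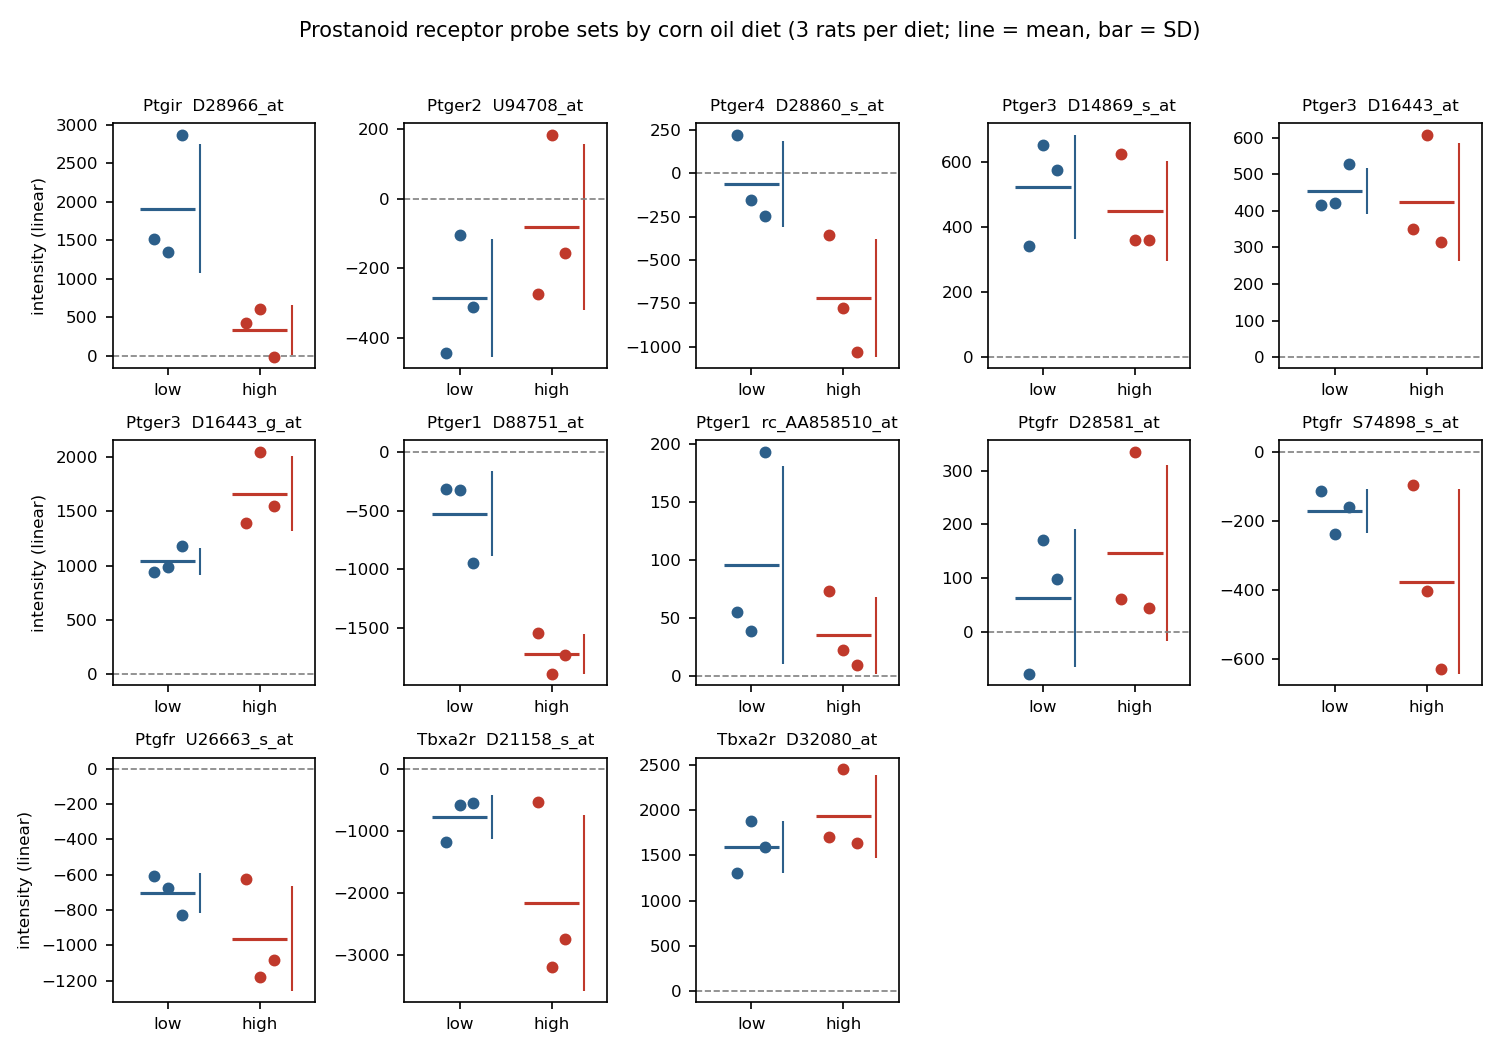
Intensity on the linear scale (vertical axis, own range in each panel) of the 13 receptor probe sets under the low and high corn oil diets, with 1 point per rat, the mean as a horizontal line and the SD as a vertical bar; the dashed line marks 0. Ptgir is lower and Ptger3 D16443_g_at higher in all 3 high corn oil rats, and many panels lie below 0.

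Probe sets were tested when their mean over the 6 arrays reached 343 units. Of the 13 receptor probe sets 5 did so, for Ptgir, Ptger3 and Tbxa2r. The other 8 had lower means and are given as intensities, some with an exact permutation test, and without a log2 difference. Ptgir passed only through its low corn oil arrays, since its high corn oil mean was under that limit. None of the 5 differed between the diets at an adjusted p under 0.05 (limma, Benjamini-Hochberg over 5244 probe sets). Over all tested probe sets limma called 0, a background of 0.0%, while 522 (9.95%) had an unadjusted p under 0.05. With no filter it called 9 of 8740 (0.103%), and without high corn oil replicate 1 it called 214 (4.08%), with no receptor probe set among them in either case. Log2 differences below are high minus low corn oil on the log2(value + 156.1) scale, which understates the change of dim genes.

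Ptgir, the prostacyclin receptor known for inhibiting platelets and relaxing vessels, gave the largest difference among the 5 tested receptor probe sets. Its intensity was 417.8, 603.6 and -20.8 in the 3 high corn oil rats and 1512.0, 1341.5 and 2869.1 in the 3 low corn oil rats. All high corn oil values were therefore below all low corn oil values, and 1 of them was below 0. The means were 333.5 ± 320.6 (SD, n = 3) and 1908 ± 837. The log2 difference was -2.26 ± 0.61 (SE), with a 95% interval of -3.69 to -0.84. It did not pass limma's test (adjusted p = 0.462, unadjusted p = 0.00689). Groups that did not overlap were found in 815 of the 5244 tested probe sets (15.5%), of which 352 (6.71%) were lower under the high diet. A log2 difference of -2 or below was found in 19 (0.362%). That cutoff lies close to the value of Ptgir itself, so this share gives the Ptgir difference no support.

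The Ptgir value of -20.8 in high corn oil replicate 3 was set to 0, so the log2 difference depends on the pseudocount. It was -2.66 with a pseudocount of 78.1 and -1.84 with one of 312.3. With a block for spike-in signal, the limma log2 difference of Ptgir was -2.30 (adjusted p = 0.555). Over the arrays left out in turn it ran from -2.71 to -1.57, the smallest without high corn oil replicate 3, the array below 0. With that array counted as low, as its description says, it was -0.66 (limma adjusted p = 0.998).

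The other cyclic AMP raising receptors were mostly below 0. Ptger2, whose product is the EP2 receptor, was at -274.6, 184.4 and -156.2 in the high corn oil rats and at -442.1, -104.9 and -310.5 in the low corn oil rats. A single value, in high corn oil replicate 2, was above 0, and the groups overlapped. Ptger4, for the EP4 receptor found on many immune cells, was at -356.5, -777.0 and -1029.6 under the high diet and at 221.9, -157.0 and -244.1 under the low diet. The Ptger4 groups did not overlap, as in 1374 of all 8740 probe sets (15.7%), but just 1 of its 6 values was above 0, so no fold is given. The exact permutation test of its mean difference, -661.3 units, gave p = 0.1 (two-sided), the smallest that 3 rats against 3 can give.

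Ptger3, for the cyclic AMP lowering EP3 receptor, had 3 tested probe sets, all above 0 on every array, and they did not go the same way. The D16443_g_at probe set was at 1393.7, 2051.2 and 1551.5 in the high corn oil rats and at 945.3, 989.1 and 1183.6 in the low corn oil rats. Every high corn oil value was above every low corn oil value, as in 463 tested probe sets (8.83%). Its means were 1666 ± 343 (SD, n = 3) and 1039 ± 127, and the log2 difference of 0.60 ± 0.21 (SE) did not pass limma's test (adjusted p = 0.480, unadjusted p = 0.0260). With a block for spike-in signal the difference was 0.50 (limma adjusted p = 0.592). Leaving out 1 array at a time gave 0.45 to 0.70.

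The other Ptger3 probe sets showed no such separation. D16443_at, designed from the same sequence record, was at 350.7, 608.3 and 314.3 under the high diet and at 415.3, 421.4 and 526.8 under the low diet. Its log2 difference was -0.10 ± 0.31 (SE), with a 95% interval of -0.84 to 0.64 (limma adjusted p = 0.904). D14869_s_at was at 625.8, 361.3 and 361.3 against 342.7, 651.4 and 576.0, a log2 difference of -0.16 ± 0.33 with a 95% interval of -0.94 to 0.61 (limma adjusted p = 0.847). Both were dim, with means of 439 and 486 over the 6 arrays, close to the limit of 343. The oligonucleotide sequences were not used here, so which EP3 isoforms each probe set reads is not given. The direction for Ptger3 as a gene was therefore not settled by these probe sets.

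**Figure D2:**
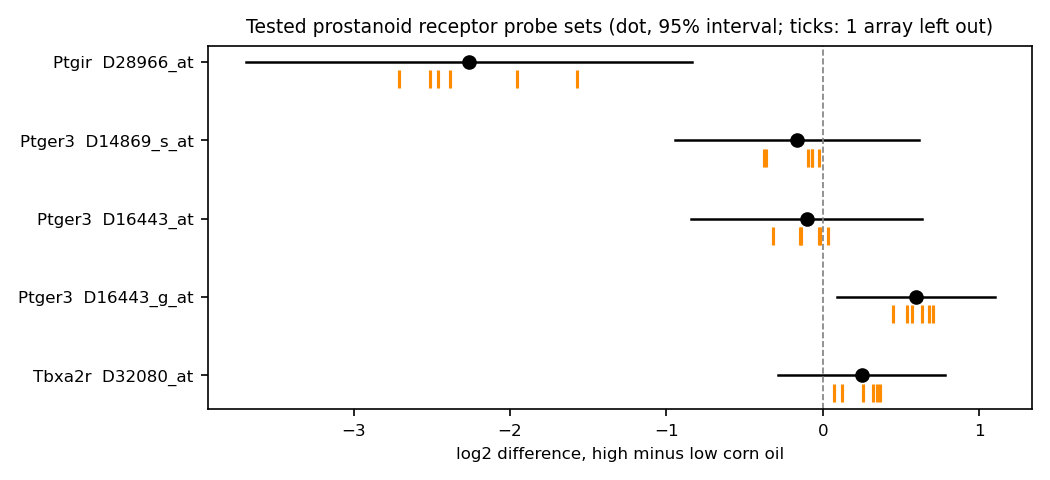
Log2 difference, high minus low corn oil (horizontal axis), of the 5 tested receptor probe sets, with the 95% interval from limma as a line and, under it, the values with 1 array left out as ticks. No probe set passed after adjustment. The interval of Ptgir runs from -3.69 to -0.84, and Ptgir was tested only through its low corn oil arrays.

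Of the calcium raising receptors, the thromboxane receptor gene Tbxa2r alone had a tested probe set. D32080_at was at 1701.8, 2456.8 and 1630.7 in the high corn oil rats and at 1300.6, 1877.4 and 1591.5 in the low corn oil rats. The groups overlapped through low corn oil replicate 2. The means were 1930 ± 458 (SD, n = 3) and 1590 ± 288, and the log2 difference was 0.25 ± 0.23 (SE), with a 95% interval of -0.29 to 0.78 (limma adjusted p = 0.667). Without high corn oil replicate 2, the highest array, the difference was 0.07, and without low corn oil replicate 1 it was 0.12. The second Tbxa2r probe set, D21158_s_at, was below 0 throughout, at -544.4, -3196.3 and -2745.5 under the high diet and at -1186.7, -585.4 and -556.1 under the low diet. The 2 probe sets of this gene thus lay on opposite sides of 0 on every array.

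Ptger1, for the EP1 receptor, was read by a pair of untested probe sets. D88751_at was at -1539.6, -1885.0 and -1725.6 in the high corn oil rats and at -315.7, -325.0 and -943.6 in the low corn oil rats. These groups did not overlap, with a mean difference of -1189 units (exact permutation p = 0.1, two-sided). Of the 805 probe sets at or below 0 on all 6 arrays, 129 (16.0%) were likewise lower under the high diet without overlap. All 6 values of D88751_at were below 0, so the difference is no level of a transcript. The other Ptger1 probe set, rc_AA858510_at, stayed between 9.3 and 193.0 units, with overlapping groups.

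Ptgfr, for the prostaglandin F receptor that contracts uterine and other smooth muscle, had 3 untested probe sets. D28581_at was at 61.5, 335.3 and 44.4 under the high diet and at -78.5, 171.4 and 98.0 under the low diet, with overlapping groups. S74898_s_at ranged from -631.6 to -96.9 and U26663_s_at from -1179.1 to -606.5 over the 6 arrays, and their groups overlapped as well. The smallest exact permutation p among the 3 was 0.3 (two-sided).

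Lower values in high corn oil replicates 2 and 3 were common among probe sets below 0. Of all 805 probe sets at or below 0 on all 6 arrays, 129 (16.0%) had every high corn oil value below every low corn oil value, and 8 (0.994%) the reverse. The median of these probe sets was -684 and -574 units in high corn oil replicates 2 and 3, and between -388 and -284 in the other 4 arrays. In high corn oil replicate 1, however, Ptger1 D88751_at was at -1539.6 while the median of these probe sets was -321. Tbxa2r D21158_s_at followed the medians under the high diet, with -544.4 in high corn oil replicate 1 and -3196.3 and -2745.5 in replicates 2 and 3.

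**Figure D3:**
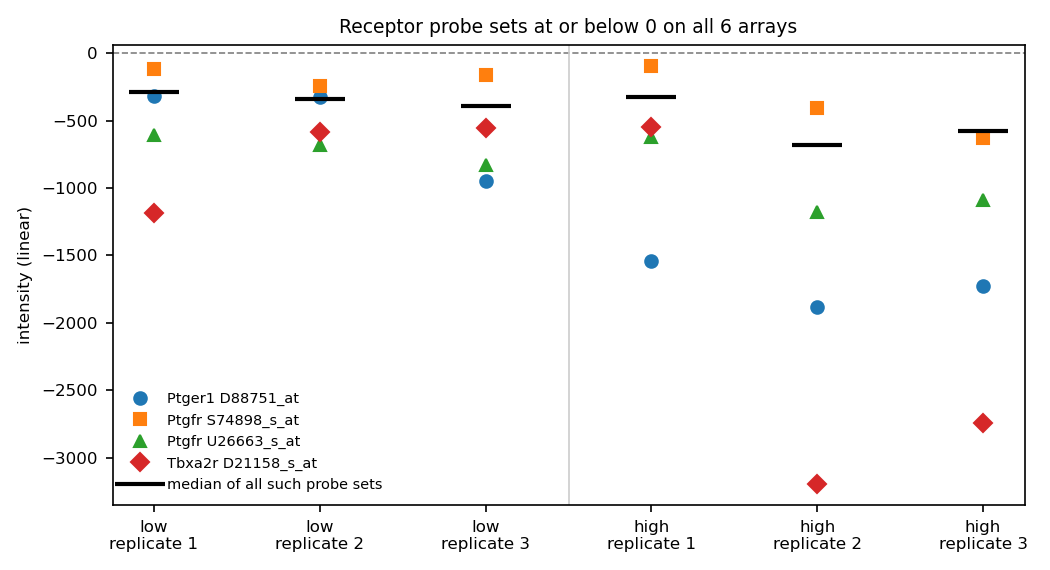
Intensity on the linear scale (vertical axis) on each of the 6 arrays (horizontal axis) for the 4 receptor probe sets at or below 0 throughout, with a black bar for the median of all 805 such probe sets. The black bar is lowest in high corn oil replicates 2 and 3, where Tbxa2r D21158_s_at is at -3196.3 and -2745.5.

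Genes that supply or remove prostanoids were described with 1 probe set per gene, the brightest. Of 19 listed genes 12 were tested, with 7 higher and 5 lower and a median log2 difference of 0.08, against 0.03 over all tested probe sets. The list median ran from -0.10 to 0.10 as single arrays were left out, the lowest when this was high corn oil replicate 3. None passed limma's adjusted test, and in 2 of the 12, Ptgis and Hpgd, the groups did not overlap, against 15.5% of all tested probe sets. Ptgis, the prostacyclin synthase that makes the ligand of the Ptgir receptor, was at 299.1, 568.3 and 1034.8 in the high corn oil rats and at 1277.7, 1092.0 and 1206.2 in the low corn oil rats. All 3 high corn oil values were lower, as in 6.71% of tested probe sets, with a log2 difference of -0.88 ± 0.36 (SE) (limma adjusted p = 0.494, unadjusted p = 0.0436), but -0.54 without high corn oil replicate 1.

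Hpgd, the dehydrogenase that inactivates prostaglandins, was at 369.0, 318.2 and 181.9 under the high diet and at 8083.9, 756.2 and 756.9 under the low diet. The groups did not overlap, and low corn oil replicate 1 was more than the other low arrays together. Like Ptgir, Hpgd passed the limit of 343 only through its low corn oil arrays, since its high corn oil mean was 289.7. The log2 difference was -2.12 ± 0.82 (limma adjusted p = 0.480), and -1.06 without that array. Ptgs1, the constitutive cyclooxygenase, was at 0.62 ± 0.34 with overlapping groups, and at 0.33 without high corn oil replicate 2.

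Signalling genes downstream of the receptors were spread around 0. In the cyclic AMP list 16 of 24 genes were tested, 9 higher and 7 lower, with a median log2 difference of 0.07. Rapgef3, the cyclic AMP sensor Epac1, was at 0.74 ± 0.30 (SE), Pde4b, a phosphodiesterase that breaks down cyclic AMP, at -0.41 ± 0.17, and Prkaca, a catalytic subunit of protein kinase A, at 0.38 ± 0.17. These 3 genes were named for the smallest p on the list, and their groups did not overlap, as in 4 of the 16 tested genes of the list and 15.5% of all tested probe sets, and none passed limma's test (adjusted p = 0.494 for the first pair and 0.501 for Prkaca). Other tested probe sets went the same way, at -0.90 and -0.90 for Pde4b and at 0.69 for Prkaca.

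Of the 6 listed genes on the array that desensitize such receptors, 4 were tested, with 2 higher, 2 lower and a median of 0.04. Among them the receptor kinases Grk2 and Grk6 were at 0.29 ± 0.27 and -0.10 ± 0.22, and the arrestin Arrb2, which uncouples receptors, was at -0.17 ± 0.17. A second probe set was at 0.03 for Grk2, -0.42 for Grk6 and 0.05 for Arrb2. The list median ran from -0.09 to 0.10 as single arrays were left out, the lowest when this was low corn oil replicate 2. Without high corn oil replicate 1, Grk2, Grk6 and Arrb2 were at 0.55, 0.12 and -0.19.

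Fibroblast, smooth muscle and macrophage markers were mostly lower under the high diet, whereas 53.9% of all tested probe sets were higher. All 7 tested fibroblast markers had lower means under the high diet (median log2 difference -0.63), with a summed intensity of 57466 to 78434 under the high and 89997 to 125570 under the low diet. Smooth muscle markers were lower in 9 of 10 (median -0.32, sums of 162460 to 220420 and 205280 to 257490). Macrophage and myeloid markers were lower in 7 of 9 (median -0.63, sums of 38949 to 62119 and 58539 to 64860). All sums cover every listed gene on the array, tested or not, with values below 0 set to 0. For macrophage and myeloid markers these were 10 genes. None of these markers passed limma's adjusted test, and their part in the Ptgir result was not tested. Relative to the low corn oil mean, Ptgir stood at -1.77, -1.37 and -3.65 in the arrays of the high diet, fibroblast markers at -0.53, -0.65 and -0.84, macrophage markers at -0.48, -0.24 and -0.28, and smooth muscle markers at -0.63, 0.04 and -0.42. Leaving out replicate 1 of the high diet brought the smooth muscle median to -0.18, leaving out replicate 1 of the low diet to -0.19, and leaving out replicate 2 of the high diet to -0.55. Counting high corn oil replicate 3 as low gave medians of -0.36 for fibroblast, -0.18 for smooth muscle and -0.39 for macrophage markers.

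Platelets and endothelium also carry prostacyclin and thromboxane receptors. Of the platelet markers 2 were tested, 1 higher and 1 lower (median 0.19, sums of 2886 to 4982 under the high and 3096 to 3765 under the low diet). Of the endothelial markers 3 were tested, 2 of them higher (median 0.28, sums of 2299 to 4310 and 1778 to 4284). Both tested mast cell markers were higher (median 0.20, sums of 4517 to 6527 and 4530 to 5481). All 5 tested skeletal muscle markers were lower (median -0.30, sums of 14261 to 32454 and 23587 to 27632). These sums include untested genes, covering 3 platelet, 5 endothelial, 8 mast cell and 7 skeletal muscle genes on the array. Luminal epithelial markers were lower in 5 of 7 (median -0.04, sums of 172990 to 300090 and 270460 to 277630). Relative to the low corn oil mean they stood at 0.12 in high corn oil replicate 1 and at -0.45 and -0.42 in replicates 2 and 3, where Pbsn was at 19851 and 21926 against 78113 to 99574 in the other 4 arrays. These medians moved with single arrays. With replicate 1 of the high diet left out, the endothelial median was 0.65, the platelet one 0.36, the mast cell one 0.38, the skeletal muscle one -0.15 and the luminal one -0.15. With replicate 2 of that diet left out, the platelet median was 0.0001, the mast cell one 0.02, the skeletal muscle one -0.56 and the luminal one -0.12. With its replicate 3 left out, the endothelial median was -0.06. Leaving out a low corn oil array gave 0.17 to 0.49 for the endothelial, -0.43 to -0.04 for the skeletal muscle and -0.17 to 0.02 for the luminal median. By its brightest probe set, no gene on any of these lists was at or below 0 on all arrays, and the part of these cells in the receptor values was not tested.

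**Figure D4:**
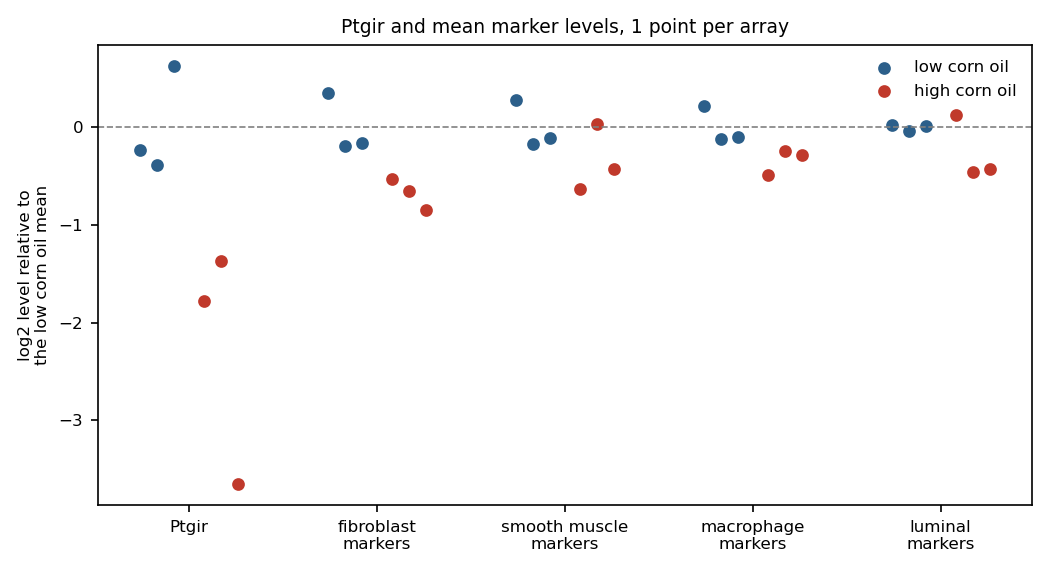
Log2 level relative to the low corn oil mean (vertical axis) for Ptgir and for the mean of 4 marker lists, with 1 point per array. The high corn oil points of Ptgir (-1.77, -1.37 and -3.65) and of the fibroblast and macrophage markers all lie below the low corn oil points, and those of the smooth muscle and luminal markers overlap them. Endothelial, platelet, mast cell and skeletal muscle markers are not drawn.

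For the 4 tested receptor probe sets above 0 on all arrays, the genes with the most similar profile over the 6 arrays were listed by Pearson's r of log2 values, as a description. All probe sets share the differences in diet and spike-in signal between these arrays, and high values of r are common over so few points. Ptger3 D16443_g_at was most like Rgs14 (0.986) and Grk1 (0.977), and 136 of 4310 probe sets exceeded 0.9. Tbxa2r D32080_at was most like Trh (0.965) and Ylpm1 (0.951), with 19 of 4312 above 0.9. For the dimmer Ptger3 probe sets the nearest were Slc16a6 (0.987) and Btg1 (0.982) for D14869_s_at, and Pdcd2 (0.979) and Reep2 (0.971) for D16443_at. Of the 4310 probe sets, 41 exceeded 0.9 for D14869_s_at and 43 for D16443_at. None of the 2 genes named for each Ptger3 probe set was shared, but so short a list cannot show whether their profiles differ.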

How the data were processed

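Total RNA (6 ug, Trizol, biotin-labelled cRNA, per the labels' protocols) from 6 rats was measured on 6 arrays. The deposited intensity values, linear and 1 per probe set and array, had been scaled by the authors; the submitters' processing notes name MAS5 and no other tool; version, settings and any background step are not given in the sources used here. Gene names came from the platform annotation, updated to GRCr8 symbols for 6985 of 7006 probe sets with 1 gene; 308 had several and 1426 none.

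Values below 0 were set to 0 and transformed as log2(value + 156.1), the pseudocount being the median of all values (624.6) divided by 4. The 59 controls were left out, and probe sets with a mean of at least 343 (40th percentile) were tested: 5244 in all, with limma 3.58.1 in R 4.3.3 (lmFit, eBayes with intensity trend, no covariate, two-sided, Benjamini-Hochberg, threshold 0.05), checked on simulated data. Untested receptor probe sets were compared by exact permutation tests. With 3 arrays per diet the number of arrays limits the precision. Named were all receptor probe sets, the 3 genes of smallest p in each pathway list and the 2 genes most like each tested receptor probe set above 0 throughout. Alternatives changed the pseudocount, filter, normalization, trend, weights, blocks, transformation, the group of high corn oil replicate 3 and the arrays used. One pathway list is not reported here. The members, lists and settings were chosen with earlier results of these data known.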

Additional observations from a re-analysis of the deposited data

How the results depend on the processing

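No receptor probe set passed limma's adjusted threshold under any of the 17 alternatives, where it was tested. The smallest limma adjusted p was 0.0629, for Ptgir with array weights. Under that setting limma called 0, but 1534 of the 5244 probe sets had an unadjusted p under 0.05, against 522 with the main settings. Low p values were thus common there and not particular to Ptgir. With no filter 9 of 8740 probe sets passed over the whole array. Leaving out 1 array gave 0 to 214 calls over all probe sets, the 214 (4.08%) without high corn oil replicate 1, when Ptgir was at -2.51 (limma adjusted p = 0.0966). Over all alternatives the log2 difference kept its sign for Ptgir (-2.71 to -0.66), Ptger3 D16443_g_at (0.45 to 0.70) and Tbxa2r D32080_at (0.07 to 0.36). Changing the filter or the trend, or adding the replicate block, cannot move these differences. The groups of Ptgir and Ptger3 D16443_g_at did not overlap. Leaving out 1 array, or changing the pseudocount or the transformation, could therefore not turn their sign, and the kept sign gives them no support. Ptgir was also tested only through its low corn oil arrays. Moving high corn oil replicate 3 to the low group turned the signs of Ptger3 D14869_s_at (0.025) and Ptger3 D16443_at (0.13). Leaving out 1 array gave -0.32 to 0.033 for D16443_at, the highest without high corn oil replicate 3, and -0.26 to 0.12 for Grk6, the highest without high corn oil replicate 1. Grk6 also turned with array weights (0.10). The cause was not tested. Replicate numbers gave no clear sign that rats were paired (correlations of deviations of -0.05, -0.20 and 0.18), but so few rats cannot exclude it. With the replicate block limma again called 0, and 554 probe sets had an unadjusted p under 0.05. Each replicate number holds 1 array per diet. This block could therefore change the limma adjusted p of Ptgir (0.405) but not its difference of -2.26. Low signal limits the 8 untested receptor probe sets: 4 were at or below 0 on all arrays, 3 on some, and Ptger1 rc_AA858510_at was above 0 but at most 193.0.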
